A study of Mus musculus with 8 samples.

Results

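Srebf2 encodes SREBP-2, the transcription factor that switches on the genes of cholesterol synthesis. It was followed here together with 6 genes that act in or on the pathway, Hmgcs1, Sqle, Insig1, Idi1, Fdft1 and Lss. Members were the genes of the table whose symbol is one of these 7 names. All 7 were found among 18770 genes. All 7 also passed the filter on low values, 3 normalized counts or more in 4 or more libraries, which left 15964 genes to test.

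The series compared back skin treated with alpinetin, a plant flavonoid, with skin given only its solvent, early in a hair cycle started by depilation. RNA was sequenced at D4 after depilation from dermis with hair follicles, after keratinocytes of the epidermis between follicles had been removed. The animals were labelled as wildtype C57BL/6 male mice of 7 to 8 weeks, and the paper names C57BL/6J. In the VC group 20 µl of 65% ethanol was applied, and in the AP group the same volume held alpinetin at 3 mg/ml. Each group had 4 libraries, numbered up to VC.4 and up to AP.4, and values are listed in that order. Each value column could be tied to its group but not to a numbered mouse, so the p-values measure the spread between these libraries. The comparison of AP with VC asks which genes differ in level between treated and vehicle skin.

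Cholesterol is built from acetyl-CoA through mevalonate and isoprenoid units to squalene, which is closed into lanosterol and then trimmed to cholesterol. When sterols run low, the escort protein Scap carries SREBP-2 to the Golgi, where proteases release its active part, and when sterols are plentiful Insig proteins hold the complex in the endoplasmic reticulum. In skin, keratinocytes use cholesterol for the barrier and sebaceous glands make lipids for sebum.

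On the mouse build mm10, Hmgcs1 (ENSMUSG00000093930) spans chr13:119690379-119708260 and Idi1 (ENSMUSG00000058258) spans chr13:8885501-8892451, both on the plus strand. Sqle (ENSMUSG00000022351) at chr15:59315077-59331192 and Srebf2 (ENSMUSG00000022463) at chr15:82147181-82205379 share chromosome 15, also on the plus strand. Lss (ENSMUSG00000033105) lies at chr10:76531588-76557138 and Insig1 (ENSMUSG00000045294) at chr5:28071363-28078662, again on the plus strand. Fdft1 (ENSMUSG00000021273), at chr14:63145150-63179578, is the member on the minus strand. All 7 are annotated as protein-coding.

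The values were normalized counts, which are reads per gene divided by a size factor for the library. Reads on genes numbered 7264151, 6833615, 6479827 and 6454563 in VC and 8507783, 10853773, 11190113 and 8863517 in AP. Every AP library was deeper than every VC library. Mitochondrially encoded genes took 54.3%, 44.9%, 42.1% and 52.3% of the reads in VC and 11.1%, 7.85%, 5.32% and 10.3% in AP. The groups did not overlap in either measure, and each gave p = 0.0286 by a two-sided exact permutation test, the smallest p that the 70 ways of splitting 8 libraries into 4 and 4 allow. Members had 55 to 2965 reads in each library, far above the floor of 3 reads, which equals 1.49 to 2.18 normalized counts in AP and 4.10 to 5.63 in VC. When all libraries were drawn down to 3080758 reads without mitochondrial genes, the number of members called was 0, as it was at full depth, against 6.26% of all genes higher and 3.85% lower. TMM scaling without mitochondrially encoded genes called 1, Srebf2, against 6.76% higher and 3.53% lower. These runs change the scaling or the depth only, and the part of the mitochondrial share in the results was not tested.

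1 library, VC.2, held the highest VC values of the members, and the main results on the members and the gene lists are therefore given with and without it, a choice made after its values were seen. Library weights that limma estimated from all tested genes were 0.375, 1.12, 0.944 and 0.516 in VC, highest in VC.2, and with these weights 0 members were called, against 7.66% of all genes higher and 4.87% lower. In the pathway VC.2 had the highest value of all 8 libraries in 6 of the 7 members, against 10.1% of all genes tested, and the highest of the 4 VC libraries in all 7, against 22% of all genes. VC.2 was singled out for these values, so the members are not a like comparison with all genes here. Summed over the 7 members, the level was 2796, 7420, 3429 and 3034 normalized counts in VC and 4181, 4582, 4661 and 5590 in AP. VC.2 was above every AP library in this sum, and the other VC libraries were below every AP library.

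Sebaceous gland markers were also high in this library. Of 12 such markers, 11 had their highest value of the 8 libraries in VC.2, as had 6 of 8 skeletal muscle markers and 6 of 12 genes of fatty acid synthesis. VC.2 was the highest VC library in all 12, all 8 and 11 of 12 of these. Their summed level was 5414, 24543, 7364 and 9253 normalized counts in VC and 10849, 10784, 7184 and 8888 in AP. The most abundant of them, Fa2h, a fatty acid hydroxylase, had 631, 8209, 1842 and 2121 normalized counts in VC and 3142, 2091, 1816 and 2509 in AP. Mc5r, a melanocortin receptor of the gland, had 0 reads in VC.1, and the other 11 markers had reads in every library. Of the 12 markers, 0 were called by limma between AP and VC, 2 had an unadjusted p under 0.05, and edgeR called 1 and DESeq2 2. Without VC.2 limma called 1, Dgat2, a triglyceride synthesis enzyme, and without AP.1 the same gene, which was chosen after its values were seen. The part of sebaceous gland cells in the values of VC.2 was not tested, and in bulk samples fewer cells of a type and less RNA per cell cannot be told apart.

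The tissue label was checked against markers. Fibroblast markers were led by Col1a1, with 35907, 21330, 22433 and 67062 normalized counts in VC and 84986, 64584, 43794 and 27508 in AP, and hair follicle markers by Krt15, with 4760, 4510, 5355 and 2779 in VC and 5466, 2211, 7711 and 6894 in AP. Dermal and follicular genes were thus present in every library. Of 8 fibroblast markers limma called 0, with 3 at an unadjusted p under 0.05, edgeR called 0 and DESeq2 1. Of 10 hair follicle markers limma called 0, with 1 at an unadjusted p under 0.05, and edgeR and DESeq2 each called 1. Limma called 0 of either list without VC.2, 1 of each without VC.4 and 1 of each without AP.1. The medians were 0.49 for fibroblast and 0.25 for hair follicle markers, and 0.32 and 0.18 without VC.2. Suprabasal keratinocyte markers, which belong to the layers above the basal layer of the epidermis, were present too, with summed levels of 6239, 13461, 9065 and 6039 normalized counts in VC and 44424, 42544, 123721 and 175370 in AP. The lowest AP library was above the highest VC library. Krt10 was the most abundant of these, 0 of the 10 had 0 reads in any library, and 9 of 10 rose with a median log2 fold change of 3.11 (8 of 10 and 3.30 without VC.2), while edgeR called 9 and DESeq2 10. Tissue described as cleared of keratinocytes of the epidermis between follicles thus held transcripts of suprabasal keratinocyte markers, at higher sums in AP. From which part of the skin these transcripts came was not tested. The part of keratinocytes in the results on the pathway was not tested.

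Across all tested genes, limma with Benjamini-Hochberg adjustment called 1011 higher and 639 lower in AP at an adjusted p under 0.05, which is 6.33% and 4% of the 15964. Without VC.2 it called 988 and 501 of 15768, or 6.27% and 3.18%. Counts of each gene list by limma compare with these shares, with and without VC.2. With all libraries the shares were 6.28% and 4.46% by edgeR and 10.5% and 8.53% by DESeq2. The limma counts over all genes leaned on single libraries. They were 584 and 255 without VC.1, 385 and 155 without AP.2, 211 and 96 without AP.3, and 257 and 147 without AP.4. A call lost in these runs is therefore not particular to a single gene. Scaling by total counts shifted the median over all genes by 0.84 on the log2 scale, from 0.06 to 0.90, and called 8670 higher and 65 lower, so that 99.3% of calls were higher against 61.3% in the deposited scaling. Upper-quartile scaling called 890 higher and 892 lower, and limma-voom 715 and 723.

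Of the 7 members, limma called 0 in either direction, against 6.33% of all genes called higher and 4% lower. Srebf2 was the 1 member with an unadjusted p under 0.05. It was also the 1 member called by DESeq2, against 10.5% of all genes higher and 8.53% lower. Of the members edgeR called 0, against 6.28% and 4.46%, and limma-voom 0, against 4.48% and 4.53%. The study's own kind of rule, an unadjusted p under 0.01 with a fold change over 1.5, took 1 member as higher, Srebf2, against 8.26% of all genes higher and 5.32% lower. Not overlapping between the groups were 0 members, against 10.3% of all genes with AP above VC and 8.91% below.

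Without VC.2, 4 members, Srebf2, Sqle, Idi1 and Lss, rose by the adjusted p, against 6.27% of all genes called higher. The same 4 rose without VC.2 by edgeR, against 5.3% of all genes called higher and 3.79% lower, and by DESeq2, against 10.5% and 7.95%. By the unadjusted rule without VC.2 they were also the 4 taken as higher, against 8.86% higher and 4.95% lower. With all libraries kept and library weights in limma, their adjusted p-values were 0.0527, 0.323, 0.632 and 0.922. Of all 7 members, 4 did not overlap between the groups without VC.2, against 14.6% of all genes with AP above and 11.5% below. VC.2 was left out after its high values in the members were seen. Counts of members without it are therefore not a like comparison with all genes. The median log2 fold change over the 7 members was 0.42 with all libraries and 0.96 without VC.2, beside 0.06 and 0.06 over all tested genes. With all libraries it was 0.19 by edgeR, 0.20 by DESeq2, 0.36 by limma-voom and 0.08 with library weights. Leaving out any other VC or AP library in turn gave medians from 0.14, without VC.4, to 0.51, without AP.3. It also gave 0 members called, except that Srebf2 was called without AP.1 (limma adjusted p = 0.0425), against 6.75% of all genes higher and 5.17% lower. In the runs with 0 members called, all genes called ranged from 211 higher and 96 lower of 15712, without AP.3, to 1009 and 522 of 15724, without VC.3. Where few genes are called, 0 of 7 members says little. The unadjusted rule took 0 members without VC.1, VC.4, AP.2, AP.3 or AP.4.

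**Figure D1:**
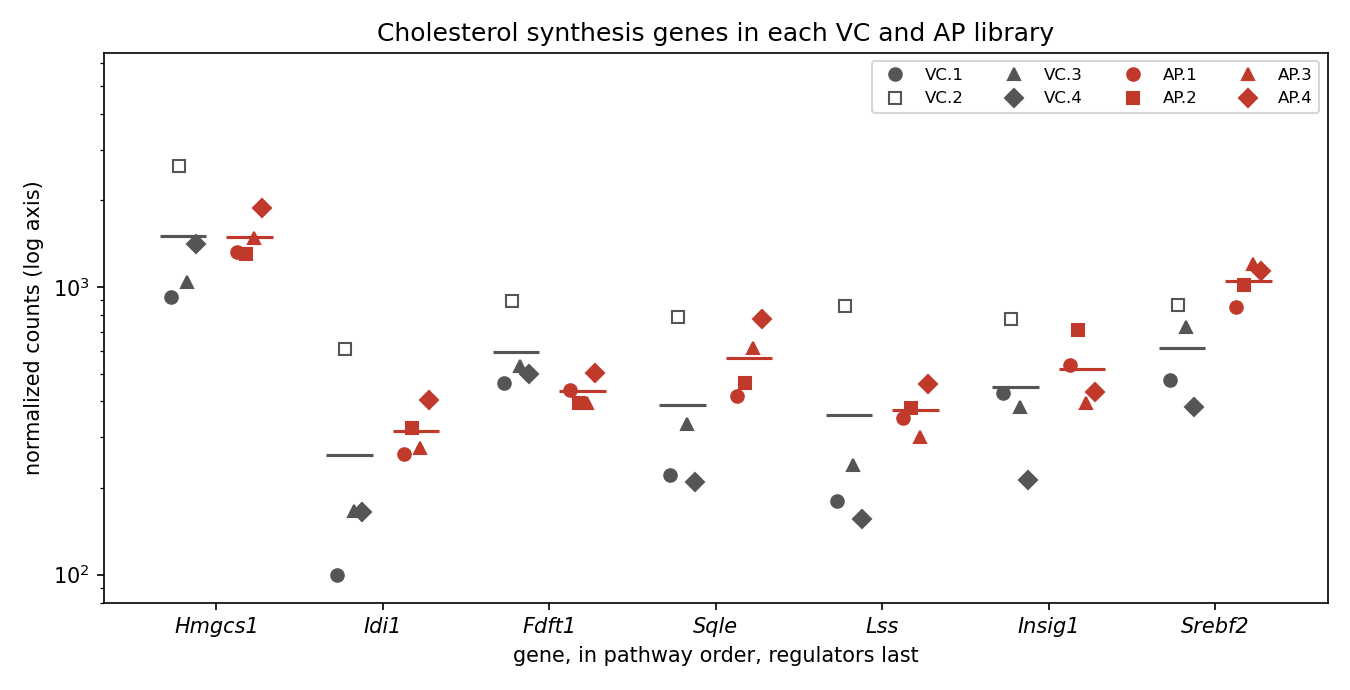
Normalized counts of the 7 members on a log axis, with each vehicle (VC) and alpinetin (AP) library as a point, VC.2 as an open symbol, and a line at the mean of each group. VC.2 lies above all AP libraries for Hmgcs1, Sqle, Insig1, Idi1, Fdft1 and Lss, and for Srebf2 its 867 normalized counts lie just above the 854 of AP.1.

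Hmgcs1, the cytosolic HMG-CoA synthase that supplies the pathway, had 926, 2636, 1043 and 1410 normalized counts in VC and 1321, 1297, 1477 and 1882 in AP. VC.2 was the highest library, VC.4 lay among the AP libraries, and VC.1 and VC.3 were the lowest. The means were 1494 ± 270 in AP and 1504 ± 783 in VC (SD, n = 4). The log2 fold change was 0.10 ± 0.29 (SE; limma adjusted p = 0.840), and 0.41 ± 0.20 without VC.2 (limma adjusted p = 0.195), with the groups still overlapping. Its sign turned without VC.1 (-0.09), without VC.3 (-0.03) and without AP.4 (-0.01), and also by edgeR (-0.017) and DESeq2 (-0.009).

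Idi1, the isomerase that sets the balance of the isoprenoid building blocks, had 100, 609, 167 and 165 normalized counts in VC and 262, 325, 276 and 403 in AP. All AP libraries were above VC.1, VC.3 and VC.4, and VC.2 was above all AP libraries. The means were 316 ± 63.9 in AP and 260 ± 235 in VC (SD, n = 4). Idi1 had a log2 fold change of 0.62 ± 0.44 (limma adjusted p = 0.363), and without VC.2 it was 1.15 ± 0.25 (limma adjusted p = 0.0240).

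Fdft1, squalene synthase, makes the first committed step towards sterols. Its values were 462, 894, 533 and 497 normalized counts in VC and 439.5, 395, 396 and 503 in AP. VC.2 was far above the rest, and AP.4 lay between VC.4 and VC.3. The means were 433 ± 50.9 in AP and 596 ± 201 in VC (SD, n = 4). With a log2 fold change of -0.42 ± 0.21 (limma adjusted p = 0.205), and -0.20 ± 0.16 without VC.2 (limma adjusted p = 0.424), it was the member with a value below 0, and under total-count scaling it was 0.45, where the median of all genes was 0.90.

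Sqle, squalene epoxidase, is an oxygen-dependent control point of the pathway. It had 222, 785, 335 and 210.0 normalized counts in VC and 419, 464, 616 and 775 in AP. VC.2 and AP.4 were close to each other at the top, and the other VC libraries were below all AP libraries. The means were 568 ± 161 in AP and 388 ± 270.5 in VC (SD, n = 4). For AP against VC the log2 fold change was 0.73 ± 0.37 (limma adjusted p = 0.208), and 1.14 ± 0.25 without VC.2 (limma adjusted p = 0.0262).

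Lss, the cyclase that forms lanosterol, had 180.1, 856, 240.3 and 156 normalized counts in VC and 351, 380.1, 301 and 459 in AP. VC.2 was above every AP library, and the remaining VC libraries were below every AP library. The means were 373 ± 65.9 in AP and 358 ± 334 in VC (SD, n = 4). With all libraries the log2 fold change was 0.42 ± 0.44 (limma adjusted p = 0.548), and 0.96 ± 0.22 without VC.2 (limma adjusted p = 0.0274).

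Insig1, which holds the Scap complex in the endoplasmic reticulum and is itself a target of SREBP-2, had 429, 773, 384 and 214 normalized counts in VC and 534, 708, 396 and 429.9 in AP. VC.2 was highest, VC.4 was lowest, and VC.1 and VC.3 lay beside AP.3 and AP.4. The means were 517 ± 140.3 in AP and 449.9 ± 234 in VC (SD, n = 4). Its log2 fold change was 0.31 ± 0.33 (limma adjusted p = 0.559), and 0.62 ± 0.28 without VC.2 (limma adjusted p = 0.166), with overlap in both cases.

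Srebf2 itself had 477, 867, 728 and 383 normalized counts in VC and 854, 1014, 1199 and 1139 in AP. VC.2 was above AP.1, and all other AP values were above all VC values. The means were 1052 ± 152 in AP and 614 ± 223 in VC (SD, n = 4). Srebf2 had a log2 fold change of 0.84 ± 0.24, with an unadjusted limma p of 0.00522 over 4 and 4 libraries and an adjusted p of 0.0503, so it missed the threshold. Without VC.2 it was 1.03 ± 0.23 (limma adjusted p = 0.0262) and the groups did not overlap. With all libraries DESeq2 gave an adjusted p of 0.0296, edgeR 0.0680 and limma-voom 0.0562. Leaving out VC.1, VC.3, VC.4, AP.2, AP.3 or AP.4 gave limma adjusted p-values from 0.0505 to 0.140, and leaving out AP.1 gave 0.0425.

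Levels of different members were compared as normalized counts per kilobase of the longest annotated transcript. In AP the order was Hmgcs1 at 431 ± 78.1, Srebf2 at 207 ± 30.0, Insig1 at 192 ± 52.0, Sqle at 127 ± 36.1, Fdft1 at 117 ± 13.8, Idi1 at 104.5 ± 21.1 and Lss at 53.3 ± 9.43 (mean ± SD, n = 4). Hmgcs1 stood above the rest and Lss below them by more than their spread, while Srebf2 and Insig1, and also Sqle, Fdft1 and Idi1, differed by less than their SD. In VC the means were 434 ± 226 for Hmgcs1, 167 ± 86.9 for Insig1, 161 ± 54.2 for Fdft1, 121 ± 44.0 for Srebf2, 86.8 ± 60.6 for Sqle, 85.9 ± 77.5 for Idi1 and 51.2 ± 47.7 for Lss. Apart from Hmgcs1 at the top, neighbours in the VC order differed by less than their SD. Per kilobase of the median transcript Idi1 moved up to 425 ± 85.8 in AP. Hmgcs1 was at 599 ± 108 beside Srebf2 at 531 ± 76.9, and Lss at 162 ± 28.6 beside Sqle at 211 ± 59.8, each pair closer than the larger SD, while Srebf2 and Insig1, at 299 ± 81.25, were further apart than either SD. The place of Idi1 and the distances of Hmgcs1, Lss, Srebf2 and Insig1 from their neighbours thus depend on the transcript that is assumed.

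The whole route was followed through 20 genes, 8 of the mevalonate steps and 12 of the squalene and sterol steps. Their summed level was 7320, 39295, 12621 and 10744 normalized counts in VC and 16678, 13064, 11551 and 17955 in AP. VC.2 held more than any other library, and in 16 of the 20 genes it had the highest value of the 8. Among the 16 were the members Hmgcs1, Idi1, Fdft1, Sqle and Lss, for which VC.2 had been singled out. Limma called 0 of 20, against 6.33% of all genes higher and 4% lower. At an unadjusted p under 0.05 there were 2, Sc5d and Dhcr7. EdgeR called 0, against 6.28% and 4.46%, and DESeq2 called 1, Sc5d, against 10.5% and 8.53%. The median log2 fold change was 0.16 against 0.06 over all genes, and was 0.01 for the mevalonate steps and 0.29 for the squalene and sterol steps. Over the 20 it was 0.088 by limma-voom but below 0 by edgeR (-0.095), by DESeq2 (-0.091), with library weights (-0.018) and without VC.1 (-0.013). Without VC.2 limma called 4 of 20 as higher, Idi1, Sqle, Lss and Hsd17b7, against 6.27% of all genes higher and 3.18% lower. The medians were then 0.44 over the 20, 0.33 for the mevalonate steps and 0.57 for the squalene and sterol steps. Without VC.3 limma called 1, Sc5d, against 1009 higher and 522 lower of 15724 genes.

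Hsd17b7, a sterol ketoreductase of the later steps, had 129, 318, 122 and 109 normalized counts in VC and 202, 231, 166 and 279 in AP. VC.2 exceeded all AP libraries and the other VC libraries were below all of them. Its log2 fold change was 0.50 ± 0.32 (limma adjusted p = 0.320), and 0.85 ± 0.23 without VC.2 (limma adjusted p = 0.0441). Sc5d and Dhcr7, the last enzymes before cholesterol in the Kandutsch-Russell order, did not have their highest value in VC.2. Sc5d had 96.4, 117, 157 and 103 in VC and 147, 216, 197 and 191 in AP, and Dhcr7 had 113, 303, 281 and 233 in VC and 297, 303, 356 and 501 in AP. For each gene a single AP library, AP.1, fell among the VC values, and their limma adjusted p-values were 0.0695 and 0.139. Without VC.2 these were 0.1002 and 0.0998, with Sc5d still overlapping and Dhcr7 not. Fdps, the farnesyl diphosphate synthase, had a mean of only 9.33 ± 2.53 normalized counts in AP and 9.59 ± 7.17 in VC. That level is uncertain, since reads shared with near-identical copies may not have been counted.

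**Figure D2:**
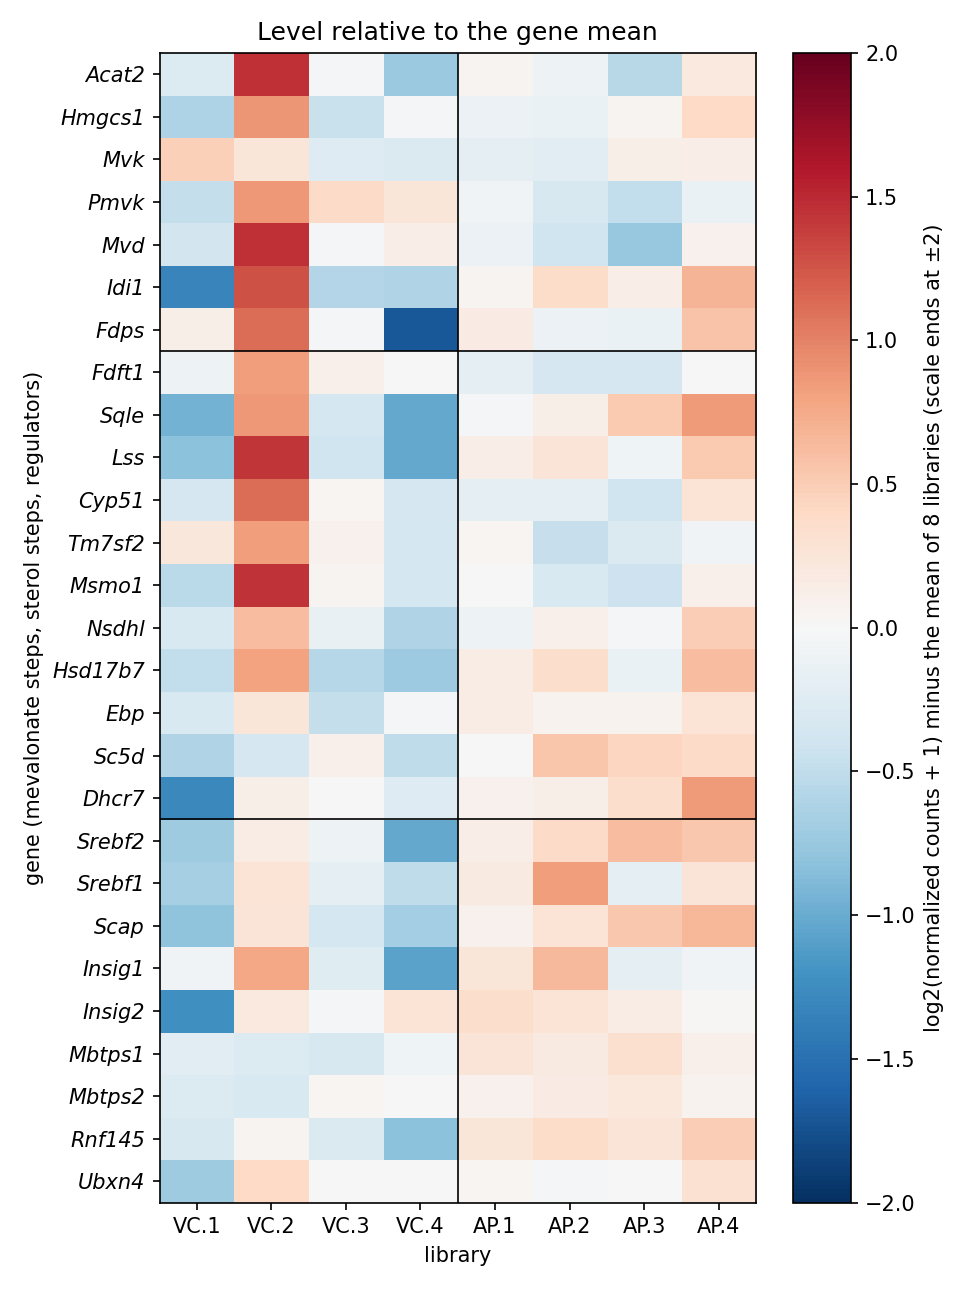
Heat map of genes of the mevalonate steps, the squalene and sterol steps and SREBP control (from top to bottom, separated by lines) in the 8 libraries, VC on the left and AP on the right. Colour gives log2(normalized counts + 1) minus the gene's mean over the 8 libraries, with the scale ending at 2 on either side, and VC.2 is the highest library for Hmgcs1, Idi1, Fdft1, Sqle and Lss.

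A list of 10 genes of the SREBPs and their control held Srebf1 and also the members Srebf2 and Insig1. VC.2 had the highest value of the 8 libraries in 2 of the 10, against 10.1% of all genes. It had the highest of the 4 VC libraries in 6, against 22%. All 10 had a log2 fold change above 0, against 53.5% of all genes, with a median of 0.49 (0.57 without VC.2), and they stayed above 0 under each scaling tried, though Ubxn4 had -0.045 without VC.1. Limma called 2 of the 10 higher and 0 lower, against 6.33% and 4% of all genes, and 6 had an unadjusted p under 0.05. Rnf145, a ubiquitin ligase of the endoplasmic reticulum, was among those that rose. It had 329, 430.0, 339 and 233 normalized counts in VC and 488, 530.0, 494 and 581 in AP. All 4 AP libraries were above all 4 VC libraries. Rnf145 had a log2 fold change of 0.68 ± 0.19 (limma adjusted p = 0.0438), and 0.82 ± 0.18 without VC.2 (limma adjusted p = 0.0273).

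The calls of these regulators were close to the threshold. Leaving out 1 library at a time, limma called 3 of the 10 without VC.2 (Srebf2, Scap and Rnf145), 2 without AP.1 (Srebf2 and Scap), 1 without VC.4, and 0 without VC.1, VC.3, AP.2, AP.3 or AP.4. The limma adjusted p of Rnf145 was 0.0273 without VC.2 and 0.0783, 0.0619, 0.0708, 0.0532, 0.101, 0.107 and 0.117 without VC.1, VC.3, VC.4, AP.1, AP.2, AP.3 and AP.4. In the runs that kept VC.2 its log2 fold change ran from 0.52, without VC.4, to 0.71, without AP.1. With all libraries edgeR called 0 of the 10, with 5 at an unadjusted p under 0.05, and DESeq2 called 5, among them Srebf2, Scap, Mbtps1 and Rnf145.

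Scap had 340.2, 715, 468 and 373 normalized counts in VC and 635, 722, 868 and 943 in AP. VC.2 lay above AP.1 and just below AP.2, as it did for Srebf2 relative to AP.1. Scap had a log2 fold change of 0.78 ± 0.23 (limma adjusted p = 0.0527), which missed the threshold, and 1.0 ± 0.19 without VC.2 (limma adjusted p = 0.0209). Mbtps1, the first of the proteases that cut SREBP, had 575, 553, 535 and 626 in VC and 797, 758, 836 and 718 in AP. The groups did not overlap, while the limma adjusted p was 0.0556 and 0.0920 without VC.2. In total 4 of the 10 genes did not overlap with all libraries, among them Mbtps1, Mbtps2 and Rnf145, against 10.3% of all genes with AP above VC, and 7 of 10 without VC.2, against 14.6%.

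Among 10 genes of cholesterol uptake and transport, 1 rose and 0 fell by limma, against 6.33% of all genes called higher and 4% lower. At an unadjusted p under 0.05 there were 4, with Scarb1, Mylip and Stard4 higher and Npc2 lower. Without VC.2 again 1 rose and 0 fell, against 6.27% and 3.18% of all genes. The median log2 fold change was 0.33 with all libraries and 0.52 without VC.2. Scarb1, the receptor that takes up cholesterol from high-density lipoprotein, had 393, 294, 310.0 and 594 normalized counts in VC and 830.4, 1956, 1006 and 747 in AP. All AP libraries were above all VC libraries, and AP.2 was the highest. Scarb1 had a log2 fold change of 1.46 ± 0.31 (limma adjusted p = 0.0186), 1.33 ± 0.33 without VC.2 (limma adjusted p = 0.0368) and 1.48 without AP.3, where the adjusted p of 0.0551 missed the threshold. Stard4, a sterol carrier, had a log2 fold change of 1.17 (limma adjusted p = 0.0698) and was called without VC.3 (0.0405) and without AP.1 (0.0464), but not without VC.2 (0.0584). DESeq2 called 3 of the 10, Scarb1, Stard4 and Mylip, and edgeR 1, Scarb1, against 10.5% and 6.28% of all genes called higher.

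Of 9 genes of sterol sensing by LXR and of efflux, 1 rose and 0 fell by limma, against 6.33% of all genes called higher and 4% lower. EdgeR called 0 of the 9 and DESeq2 3, the latter against 10.5% of all genes higher and 8.53% lower. The median log2 fold change was -0.03 (0.06 without VC.2). The gene that rose was Abca1, which exports cholesterol to lipoproteins. Its values were 540.3, 743, 367 and 476 normalized counts in VC and 914, 1189, 866 and 709.5 in AP, and VC.2 was above AP.4. Abca1 had a log2 fold change of 0.81 ± 0.23 (limma adjusted p = 0.0435), and 0.99 ± 0.21 without VC.2 (limma adjusted p = 0.0239). The call was lost without VC.1, VC.3, VC.4, AP.1, AP.2, AP.3 and AP.4, with adjusted p-values of 0.0770, 0.0802, 0.0798, 0.0611, 0.115, 0.106 and 0.0624. In these runs the log2 fold change of Abca1 ran from 0.65, without VC.3, to 0.93, without AP.4. Without VC.4 another gene of the list was called higher, and without AP.1 another was called lower. Of 8 genes of the isoprenoid branch, which uses the same intermediates for prenylation, dolichol and ubiquinone, limma called 0, edgeR 0 and DESeq2 0, and 1 had an unadjusted limma p under 0.05. The median was -0.03 (0.01 without VC.2), and the most abundant gene was Fnta, a subunit of farnesyltransferase.

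Fatty acid synthesis, the neighbouring program driven mainly by Srebf1, had 2 of 12 genes higher by limma, Scd2 and Gpam, and 1 lower, Fads1. Of all genes 6.33% were called higher and 4% lower. The median log2 fold change of the 12 was 0.54. By edgeR 2 were higher, Acaca and Scd2, and 1 lower, Fads1, and by DESeq2 3 were higher and Fads1 lower. Without VC.2 the list had 6 higher and 0 lower by limma, against 6.27% and 3.18% of all genes, with a median of 0.98. Limma called 0 of the 12 without AP.2, AP.3 or AP.4 and 1 without VC.1, VC.3 or VC.4. Gpam, which starts glycerolipid synthesis, had 111, 409, 84.7 and 60 normalized counts in VC and 394, 474.5, 356 and 345 in AP. VC.2 lay among the AP libraries and the other VC libraries were far below. Its log2 fold change was 1.65 ± 0.47 (limma adjusted p = 0.0455), and 2.22 ± 0.24 without VC.2 (limma adjusted p = 0.00385). With all libraries it was not called by edgeR (1.22, adjusted p = 0.116), by DESeq2 (1.24, 0.0643) or with library weights (0.0650). By limma-voom Gpam was called (1.60, adjusted p = 0.0356). The call was lost when any of the other 7 libraries was left out, with limma adjusted p-values from 0.0613 to 0.109 across VC.1, VC.3, VC.4, AP.1, AP.2, AP.3 and AP.4. In these runs the log2 fold change of Gpam ran from 1.31, without VC.4, to 1.71, without AP.4.

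Scd2, a stearoyl-CoA desaturase, had 828, 1178, 1005 and 853 normalized counts in VC and 1361, 2317, 1655 and 1832 in AP, with no overlap. Its log2 fold change was 0.88 ± 0.19 (limma adjusted p = 0.0205), and 0.98 ± 0.20 without VC.2 (limma adjusted p = 0.0216), and it missed the threshold without AP.2 (0.0573), AP.3 (0.0583) and AP.4 (0.0583). Fads1, a desaturase of polyunsaturated fatty acids, had 311, 313, 335 and 441 in VC and 259, 247.5, 206 and 195 in AP, also with no overlap. Its log2 fold change was -0.62 ± 0.18 (limma adjusted p = 0.0498), and -0.67 ± 0.20 without VC.2, where the adjusted p of 0.0596 missed the threshold. It was kept without AP.1 (0.0473), and lost without VC.1 (0.0664), VC.3 (0.0688), VC.4 (0.0913), AP.2 (0.0898), AP.3 (0.145) and AP.4 (0.133). Under total-count scaling its log2 value was 0.25 against a median of 0.90 over all genes.

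**Figure D3:**
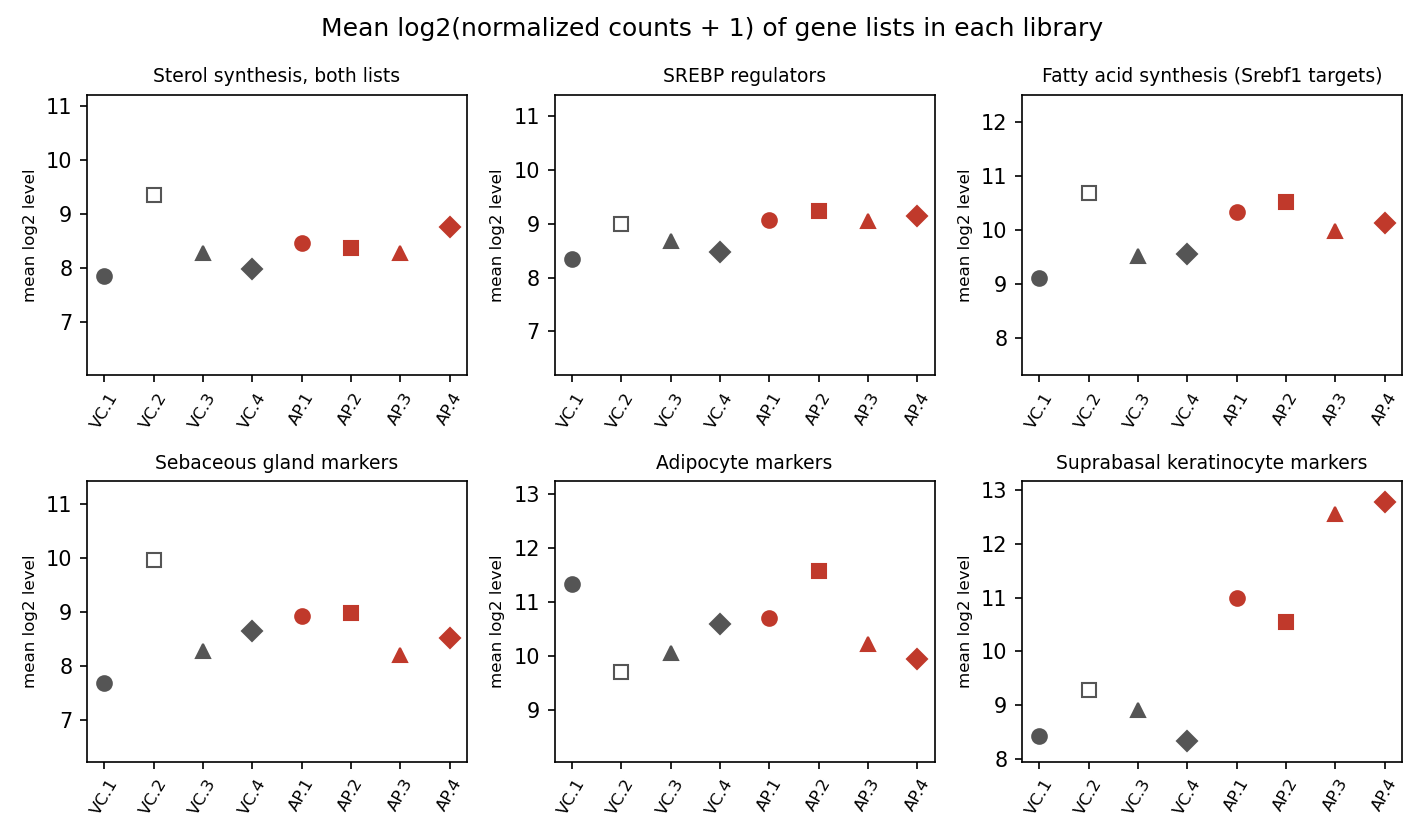
Mean log2(normalized counts + 1) of 6 gene lists in each library, VC in grey with VC.2 as an open symbol and AP in red. Sterol synthesis and sebaceous gland markers both have their highest value in VC.2 (9.35 and 9.97), while suprabasal keratinocyte markers are higher in each AP library (10.54 to 12.77) than in each VC library (8.34 to 9.28).

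Other cell types were followed by marker lists. Of 6 basal keratinocyte markers 3 rose, Itga6, Itgb4 and Col17a1, the same 3 without VC.2, but 1, Itga6, without VC.1, VC.4, AP.3 or AP.4, and 2 without AP.2. By edgeR 2 rose, Itga6 and Col17a1, with adjusted p-values for Itgb4 of 0.0560 (0.0721 without VC.2), and by DESeq2 3. The list had summed levels of 24117, 78090, 46700 and 21902 normalized counts in VC and 49171, 52381, 94066 and 138232 in AP, with Krt14 the most abundant by its mean over the 8 libraries. VC.2 was the highest VC library here as well. Of 6 endothelial markers 3 rose, Pecam1, Cdh5 and Flt1 (1 without VC.1, 2 without VC.2, AP.2, AP.3 or AP.4, and 4 without VC.4), while edgeR called 3 and DESeq2 5. Their sums were 782, 628, 1238 and 1348 in VC and 2192, 5561, 1929 and 2050 in AP, led by Pecam1. Each AP library was above each VC library, and AP.2 was the highest. Adipocyte markers had sums of 48846, 17537, 18518 and 32768 in VC and 33382, 48199, 21410 and 17988 in AP, led by Cfd, and VC.2 was the lowest of the 8.

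Skeletal muscle markers had sums of 44354, 67309, 33394 and 34669 in VC and 67753, 8698, 5181 and 11049 in AP, led by Acta1, with AP.1 unlike the other AP libraries. Leukocyte markers had sums of 19198, 11153, 8288 and 28405 in VC and 13987, 9430, 8605 and 8642 in AP, led by Cd74. By limma 0 of 10 adipocyte, 0 of 8 muscle and 0 of 8 leukocyte markers were called, with 2, 6 and 4 at an unadjusted p under 0.05. edgeR called 0, 0 and 0 of these lists and DESeq2 0, 0 and 2. Without AP.1 limma called all 8 muscle markers lower, against 5.17% of all genes lower and 6.75% higher. AP.1 was far above the other AP libraries in these markers, so this count is not a like comparison with all genes. Without VC.2 limma called 0 adipocyte and 0 muscle markers and 1 leukocyte marker lower, and without VC.3 also 1. No marker of these 5 lists had 0 reads in any library. Whether these cell types have a part in the levels of the pathway was not tested.

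Of 11250 tested genes with a mean of at least 50 normalized counts, those most like the mean profile of the 7 members over the 8 libraries were Slc16a13 (Pearson's r 0.972), Mboat7 (0.968), Gps1 (0.964), Clint1 (0.962) and Gm21691 (0.955). After each group was centred on its own mean, they were Hacd3 (0.975), Slc16a1 (0.974), Cyp51 (0.974), Gps1 (0.973) and Cds1 (0.972). Cyp51, the lanosterol demethylase, was the gene of the sterol route among these 10 places. These r values describe 8 points that share depth and group. They rested on VC.2, since without it 0 of the 5 pooled and 0 of the 5 centred genes were still among the nearest 5.

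Promoter windows, from 250 bases before to 50 bases after the RefSeq start on GRCm38.p6, were given for 5 of the 7 members, Hmgcs1, Idi1, Insig1, Lss and Srebf2. They were searched on both strands for TCACNCCAC, letters of the sterol regulatory element bound by SREBP, for CCAAT, the box of the factor NF-Y, and for CACGTG, an E-box. Among 32851 promoters of the same length, TCACNCCAC was found in 408 (1.24%), CCAAT in 12289 (37.4%) and CACGTG in 2349 (7.15%). TCACNCCAC was in 1 of the 5 windows, that of Hmgcs1, at position -137 from the start. CCAAT was in all 5, read as ATTGG on the printed strand, and in Idi1 it lay at -45 and -14. CACGTG was in 1, that of Insig1. A match is a description of letters only. The windows of Hmgcs1 (chr13:119690101-119690350), Insig1 (chr5:28071162-28071362), Lss (chr10:76531355-76531587) and Srebf2 (chr15:82147019-82147180) are shown because they belong to the regulator and to 3 of its targets. Each is on the plus strand, written 5′ to 3′ up to the last base before the first annotated start, and capitals mark the matches.
Hmgcs1: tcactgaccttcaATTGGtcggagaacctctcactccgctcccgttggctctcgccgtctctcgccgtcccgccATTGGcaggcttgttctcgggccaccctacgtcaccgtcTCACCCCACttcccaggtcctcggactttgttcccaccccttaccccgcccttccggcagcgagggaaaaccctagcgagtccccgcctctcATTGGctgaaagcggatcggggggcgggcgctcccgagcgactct
Insig1: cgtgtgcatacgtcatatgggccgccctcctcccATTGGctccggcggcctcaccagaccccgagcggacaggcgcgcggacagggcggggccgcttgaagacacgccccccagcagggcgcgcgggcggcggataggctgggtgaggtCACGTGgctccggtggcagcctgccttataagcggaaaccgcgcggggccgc
Lss: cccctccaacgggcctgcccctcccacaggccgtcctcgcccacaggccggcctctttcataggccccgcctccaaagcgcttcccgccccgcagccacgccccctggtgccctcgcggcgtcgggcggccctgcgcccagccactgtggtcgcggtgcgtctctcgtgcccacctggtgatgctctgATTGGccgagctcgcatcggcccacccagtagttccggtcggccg
Srebf2: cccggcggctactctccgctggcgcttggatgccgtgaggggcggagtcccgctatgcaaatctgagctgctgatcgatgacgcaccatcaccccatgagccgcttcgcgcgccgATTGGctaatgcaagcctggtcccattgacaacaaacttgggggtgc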

How the data were processed

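RNA-seq libraries of 4 AP and 4 VC samples were used. The authors aligned reads to mm10 with STAR and deposited signal values that are read counts divided by DESeq2 size factors. The paper's methods name featureCounts and the submitters' processing notes name HTSeq for counting, and versions and strand setting are not given in the sources used here. The deposited table also holds the authors' comparison columns (mean level, log2 fold change, its error, statistic, p-value and adjusted p-value), which were not used. Dividing each column by the value of 1 read gave whole reads for 100% of 150160 values (tolerance 0.02), and edgeR on those reads called 1003 genes higher and 712 lower.

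Log2(value + 1) was compared by limma 3.58.1 in R 4.3.3 with an intensity trend, for genes that reached 3 normalized counts in 4 or more libraries, with Benjamini-Hochberg adjustment over all tested genes. Fold changes are on the log2(value + 1) scale. Called means an adjusted p under 0.05. The limma test was tested on simulated data, where it recovered 26 of 100 genes changed 2-fold and 97 of 100 changed 4-fold. Of its 132 calls there, 9 were false. DESeq2 recovered 49 and 99, with 27 false of 175 calls. A member that was not called may therefore still differ 2-fold. Alternatives were edgeR 4.0.16, DESeq2 1.42.0, limma-voom, scalings, pseudocounts of 0.5 and 5, filters, no intensity trend, equal depth, removal of a trend with transcript length, and each library left out. Runs of edgeR and DESeq2 without VC.2 and library weights were added after the data were seen. The floor of 3 reads covers counting error only.

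Members and gene lists were chosen with earlier results of these data known. Named were the 7 members, genes of the lists for mevalonate, squalene and sterol steps, SREBP regulators, and uptake and transport, in other lists the most abundant gene and up to 4 called genes of largest change, and the 5 nearest profiles. Outside these rules Mc5r was named for its 0 reads in VC.1, Dgat2 for its call without VC.2 and Acaca for its call by edgeR. Gene positions and transcript lengths came from GENCODE M21. Promoters of Sqle and Fdft1 are named only. Some genes of the lists are not reported here singly, though they stay in the fit and in the counts of their lists.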

Additional observations from a re-analysis of the deposited data

Results flagged for a closer look

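A group was taken up here when its highest or lowest library lay further from the nearest of the other 3, as a share of the group's range, than Dixon's 95% critical value for 4 samples allows. Among 174 groups tested there were 22, and chance flags about 1 in 20 independent groups, which would be 8.7. The groups are not independent, since they share libraries and include list means and genes chosen for likeness to the members. The 22 can therefore not be judged against 8.7. Of the 22, 11 were a high value in VC.2. Of the 7 members 3 were among these and 4, Srebf2, Hmgcs1, Sqle and Insig1, were not, and neither were Fa2h or the mean log2 levels of the members, of sterol synthesis and of sebaceous gland markers.

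The values of VC.2, in normalized counts, were as follows. Idi1 had 608.8 against 100 to 166.6 in the other VC libraries, Fdft1 894 against 462 to 532.5, Lss 855.6 against 155.6 to 240.3, Mvd 1031 against 287.4 to 408.8, and Hsd17b7 317.7 against 108.8 to 129.2. Among lipid genes Scd1 had 34295 against 11817 to 15223 and Gpam 409.3 against 60 to 111. Among the nearest profiles Slc16a13 had 308.9 against 95.63 to 114.6, Gm21691 608.8 against 161.9 to 189.4, Hacd3 965 against 334.7 to 438.3, and Slc16a1 438.9 against 105 to 127.3. The nearest profiles were chosen for likeness to the members, so their values in VC.2 are not a separate observation.

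In AP.1, 2 genes lay above the other AP libraries, Cd74 with 7666 (4621 to 4947 in the others) and Acta1 with 20882 (1683 to 4337), and Stard4 lay below them with 114.6 (196.7 to 208.3). In AP.2, Mylip had 590.4 (345.2 to 358.2), Pecam1 2244 (825.6 to 896.4), Flt1 774.8 (251.1 to 305.3) and Cdh5 1373 (398.1 to 462.7), and the mean log2 level of the endothelial markers was 9.436 (7.977 to 8.216). In AP.4, Ubxn4 had 686.6 (546.7 to 570.1) and Cds1 394.1 (292.5 to 298.8). In VC.4, Stard3 had 159.4 (113.8 to 120.2).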

How the results depend on the processing

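Counts of genes past the threshold moved with the tool, the scaling, the intensity trend of the fit and single libraries, and the cause was not tested. With 1 library left out at a time, all genes higher by the adjusted p ranged from 211 to 1061 and lower from 96 to 812, and by the unadjusted rule from 823 to 1397 and from 506 to 1000. Members higher ranged from 0 to 4 by either rule and sterol synthesis genes higher from 0 to 4. Members lower and sterol genes lower were 0 to 0. The median log2 fold change ranged from 0.14 to 0.96 for the members, from -0.01 to 0.44 for sterol synthesis and from 0.41 to 0.57 for SREBP regulators. DESeq2 gave 1677 higher and 1362 lower, 1 member and 1 sterol gene. Total-count scaling gave 8670 and 65, 6936 and 33 by the unadjusted rule, 6 members (4 by the unadjusted rule) and 10 sterol genes, with medians of 1.28, 0.98 and 1.36 for members, sterol synthesis and regulators. No intensity trend gave 376 and 216, and 0 members by the unadjusted rule. Removing the length trend gave 666 higher and 0 members by that rule, and edgeR 0. TMM scaling without mitochondrial genes, a pseudocount of 5, a filter at 10 normalized counts and an adjusted p under 0.10 each gave 1 member. Over all genes TMM scaling gave 1081 higher and 564 lower of 15989. The pseudocount of 5 gave 1140 and 711 of 15964, and the filter at 10 gave 997 and 670 of 14401. The count over all genes at an adjusted p under 0.10 is not given here. Without VC.2, DESeq2 gave 1653 and 1253, and edgeR and DESeq2 each gave 4 members by either rule and 4 sterol genes.

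Single genes kept their direction and side of the threshold in 1384 comparisons with an alternative, fell short of it in 82, passed it in 86 and changed sign in 59, and the cause was not tested. Of the 59, 16 came with total-count scaling, which moved the median over all genes to 0.90. All 16 were below that median, so relative to other genes they did not turn. By edgeR the log2 fold change turned to -0.017 for Hmgcs1, -0.077 for Fdps, -0.44 for Fa2h, -0.031 for Hacd3 and -0.023 for Cds1, and by DESeq2 to -0.009, -0.073, -0.42, -0.021 and -0.012. With library weights it was -0.02 for Hmgcs1, -0.01 for Fdps, -0.11 for Scd1, -0.37 for Fa2h, -0.093 for Hacd3 and -0.064 for Cds1. Total-count scaling turned Fdft1 to 0.45, Acat2 0.66, Mvk 0.79, Pmvk 0.35, Mvd 0.27, Cyp51 0.63, Tm7sf2 0.47, Msmo1 0.56, Npc2 0.24, Lipa 0.33, Tmem97 0.39, Stard3 0.71, Apoe 0.22, Fnta 0.53, Fads1 0.25 and Cd74 0.61. Without VC.2, edgeR gave 0.21 for Acat2, 0.081 for Cyp51 and 0.091 for Msmo1, and DESeq2 0.23, 0.10 and 0.11. Without the length trend Mvk was 0.067, Stard3 0.022, Scd1 -0.041, Cd74 0.044 and Clint1 -0.24. With 1 library left out, ranges that crossed 0 were -0.49 to 0.24 for Acat2, -0.58 to 0.082 for Cd74, -0.09 to 0.56 for Cds1, -0.39 to 0.094 for Cyp51, -0.44 to 0.79 for Fa2h, -0.29 to 0.65 for Fdps, -0.055 to 0.45 for Hacd3, -0.089 to 0.41 for Hmgcs1, -0.54 to 0.12 for Msmo1, -0.19 to 0.062 for Mvk, -0.016 to 0.50 for Scd1 and -0.045 to 0.32 for Ubxn4.

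With 4 libraries a group and 3080758 to 3762217 reads outside mitochondrial genes in each VC library, small changes are not detectable, and levels of scarce genes such as Fdps rest on few reads. Depth and mitochondrial share differ between the groups without overlap and cannot be told apart from treatment. Bulk levels do not separate cell numbers from level per cell. No paired analysis was possible because the columns are not tied to single animals, and the numbers in the sample labels are not shared between the groups.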
